A study of Mus musculus with 12 samples.

Results

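The Notch receptors, their ligands and their best known transcriptional targets were followed across 4 treatments of an endothelial tumor. The 10 genes were taken by name from a table of 54232 genes: the receptors Notch1, Notch2, Notch3 and Notch4, the ligands Dll4, Jag1 and Jag2, and the targets Hes1, Hey1 and Hey2. RNA was sequenced from 12 subcutaneous SVR tumors, 3 per treatment, grown in athymic nude mice 8 to 12 weeks old, and the labels give the strain as C57BL/6. Control tumors received vehicle (Cremaphor, PEG 400 and tween), trametinib treated tumors 1 mg/kg of the MEK inhibitor trametinib, cediranib treated tumors 3 mg/kg of the pan-VEGFR inhibitor cediranib, and combination treated tumors both drugs at these doses, all by daily gavage. SVR is 1 mouse endothelial line transformed with a simian virus large T antigen and an activated Ras, which every group shared. The study ran one experiment with a fixed harvest time and another in which mice were dosed until a tumor ulcerated or passed 1 cm. The sources used here do not say which of them gave the sequenced tumors, so the time on treatment of each tumor is unknown. Because host and tumor are both mouse, transcripts of tumor cells, vessels, stroma and skin are not separated. In whole tumor RNA, fewer cells of a type and less RNA per cell cannot be told apart.

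Notch receptors are single-pass membrane proteins that are cut when a Delta-like or Jagged ligand on a neighboring cell pulls on them. The released intracellular part enters the nucleus, joins the DNA-binding protein RBPJ and turns on genes such as those of the Hes and Hey families of transcriptional repressors. In blood vessels, VEGF signaling induces DLL4 in the leading tip cell, DLL4 restrains sprouting in its neighbors through NOTCH1, NOTCH4 is largely an endothelial receptor, and NOTCH3 is the receptor of pericytes and vascular smooth muscle.

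Notch4, the endothelial receptor, and Dll4, the tip cell ligand, were lower in both groups that received trametinib, whereas Notch3, the mural cell receptor, was higher in combination treated tumors. Cediranib alone gave no call among the 9 genes that could be tested, and its tumors overlapped control for each of them. The target genes gave no call by the criteria used here, although Hey1 was counted at most 6 times in any tumor given trametinib, and Hey2 was counted in no tumor without it. Trametinib treated tumors also held less Jag2 and Notch1 and more Notch2 than control at a false discovery rate (FDR) under 0.05, by changes smaller than the fold required for a call.

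The bases upstream of 4 of these genes are shown because the results turn on them: Notch4 and Dll4 as the 2 genes called lower with trametinib, Notch3 as the one called higher with the combination, and Hey2 for the RBPJ core in its window. They were taken from RefSeq on GRCm38.p6, run 5′ to 3′ on the gene's strand and end before the start of the gene in both the deposited table and GENCODE M21. Capitals mark the RBPJ core TGGGAA or, where it lies on the opposite strand, TTCCCA.
Notch4, chr17:34564045-34564267 (plus strand): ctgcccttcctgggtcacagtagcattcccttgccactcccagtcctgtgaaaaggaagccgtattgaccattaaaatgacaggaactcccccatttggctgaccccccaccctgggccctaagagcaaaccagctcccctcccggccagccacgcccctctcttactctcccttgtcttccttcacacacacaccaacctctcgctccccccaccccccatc
Dll4, chr2:119325534-119325783 (plus strand): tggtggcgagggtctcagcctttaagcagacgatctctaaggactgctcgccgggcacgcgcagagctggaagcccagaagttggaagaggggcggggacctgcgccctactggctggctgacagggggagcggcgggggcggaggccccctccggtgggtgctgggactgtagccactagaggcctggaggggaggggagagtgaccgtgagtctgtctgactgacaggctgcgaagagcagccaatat
Notch3, chr17:32166891-32167140 (minus strand): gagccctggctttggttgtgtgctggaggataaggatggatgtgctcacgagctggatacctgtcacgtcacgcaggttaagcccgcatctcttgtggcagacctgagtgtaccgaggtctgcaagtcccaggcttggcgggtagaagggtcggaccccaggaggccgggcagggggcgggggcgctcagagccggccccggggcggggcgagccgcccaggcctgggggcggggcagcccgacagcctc
Hey2, chr10:30842802-30843033 (minus strand): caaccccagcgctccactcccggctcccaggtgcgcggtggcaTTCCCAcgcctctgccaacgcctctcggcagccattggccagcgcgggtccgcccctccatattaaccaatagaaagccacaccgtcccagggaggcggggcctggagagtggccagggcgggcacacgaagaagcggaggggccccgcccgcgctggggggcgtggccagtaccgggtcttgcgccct
Of the 10 members, 8 matched a RefSeq entry, and the 250 bases before the RefSeq start were searched on both strands. Hes1 and Hey1 were not searched. Among the 8 searched, the RBPJ core was found in Hey2 alone, on the opposite strand from 207 to 202 bases before the RefSeq start, while 21.6% of 32851 mouse promoter windows of the same length held it. The Hey2 bases shown are the first 232 of the 250 searched, so the core lies nearer to their end than to the RefSeq start. The AP-1 letters TGANTCA (6.75% of windows), the ETS letters CCGGAAG (6.91%) and the E-box CACGTG (6.02%) matched in 0 of the 8. No match overlapped another. These are matches of letters and describe no binding.

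The libraries held 9478865 to 11666094 counts (median 10307815), and normalized CPM, the counts scaled to library size, used TMM factors between 0.908 and 1.1. A filter on low counts left 12897 genes, among them 9 of the 10 members. Hey2 did not pass. Changes were tested with edgeR's quasi-likelihood test and Benjamini-Hochberg adjustment over all genes tested, and this test stands behind every FDR given here unless DESeq2 is named. A gene was called when its FDR was under 0.05 and its log2 fold change was 1.5 or more in either direction. A count of 3, the limit that a count of 0 allows, corresponded to 0.251 to 0.349 CPM in a library, which covers counting error only. The tumors of a group are separately labelled, but the sources used here do not say that each came from a separate mouse, so the p-values measure the spread between these tumors. The comparisons share groups, the control tumors above all, and are not independent of each other. The exome probes used for capture set how well each transcript was counted, and they were chosen because much of the RNA was degraded. Members of the same tumor are not replicates of one another.

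Among the receptors, Notch4 (ENSMUSG00000015468, chromosome 17, 34564268 to 34588503, plus strand) had 32.5, 28.1 and 43.3 CPM in the control tumors and 43.7, 26.6 and 24 CPM in the cediranib treated tumors. It had 9.81, 10.2 and 7.62 CPM in the trametinib treated tumors and 12.2, 11.8 and 9.84 CPM in the combination treated tumors. All 6 tumors that received trametinib lay below all 6 that did not. Compared to control, Notch4 was 3.76-fold lower with trametinib (log2 fold change -1.91, standard error, SE, 0.25, FDR 0.00111). In combination treated tumors it was 3.07-fold lower than in control (log2 fold change -1.62, SE 0.25, FDR 0.00371). The call in combination treated tumors was lost without control replicate 3, where the log2 fold change was -1.43 (FDR 0.0158), just short of the fold required.

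**Figure D1:**
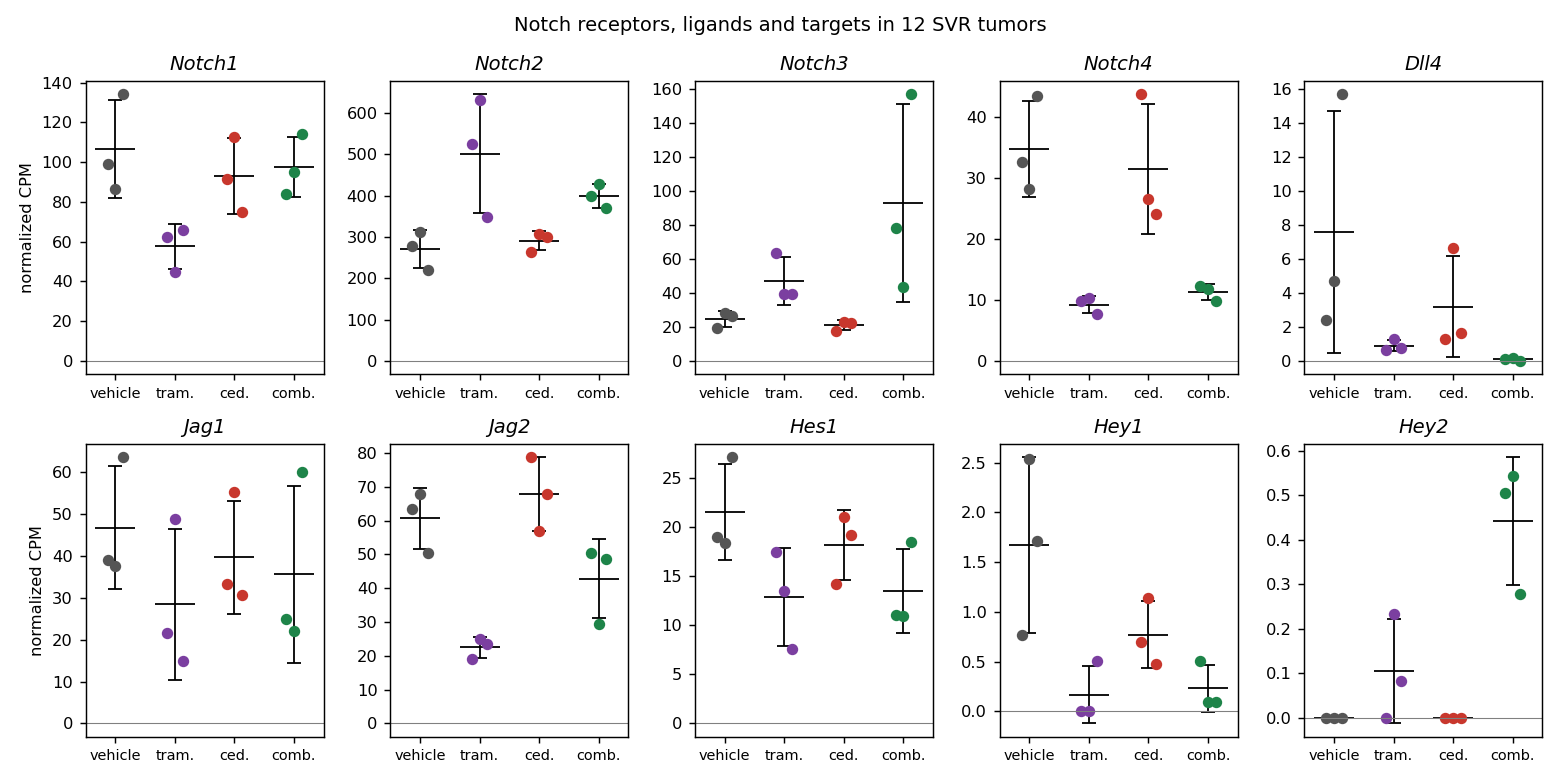
Normalized CPM (y axis, linear, a separate scale per gene) of the 10 genes in each of 12 tumors, grouped as vehicle control, trametinib (tram.), cediranib (ced.) and combination (comb.). Points are tumors, the long horizontal line is the mean and the bars are 1 SD (n = 3), and Notch4 separates the 6 tumors given trametinib, 7.62 to 12.2 CPM, from the other 6, 24 to 43.7 CPM.

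Notch3 (ENSMUSG00000038146, chromosome 17, 32120820 to 32166880, minus strand) ran the other way. Control tumors had 19.5, 27.9 and 26.3 CPM and cediranib treated tumors 17.5, 22.8 and 22.4 CPM. Trametinib treated tumors had 63.5, 39.0 and 39.0 CPM, and combination treated tumors had 78, 43.3 and 157 CPM. Every tumor given trametinib thus exceeded every tumor that was not, and combination replicate 3 stood well above the rest. In combination treated tumors Notch3 was 3.78-fold higher than in control (log2 fold change 1.92, SE 0.38, FDR 0.011) and 4.43-fold higher than in cediranib treated tumors (log2 fold change 2.15, SE 0.39, FDR 0.00797). Without combination replicate 3 the log2 fold change against control was 1.30 (FDR 0.0285), under the fold required, and against cediranib it was 1.54 (FDR 0.0181). With trametinib alone the log2 fold change was 0.94 (95% interval 0.13 to 1.76, FDR 0.176), which was not past the threshold although the groups did not overlap. A noncoding gene on the opposite strand, Gm17276, overlaps a Notch3 exon and held at most 17 counts in any tumor, and the sources used here do not give the strand setting of the counting.

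Notch2, the most abundant of the receptors per kb, is broadly expressed outside the endothelium. It lies on chromosome 3 from 98013527 to 98150361, plus strand (ENSMUSG00000027878), and shares exon bases with Gm42820 on the same strand. It had 278, 312 and 220.4 CPM in the control tumors, 525, 633 and 349 CPM in trametinib treated, 264, 306 and 301 CPM in cediranib treated and 398, 428 and 370.3 CPM in combination treated tumors. The tumors given trametinib again lay above all the others. The increase with trametinib was 1.86-fold (log2 fold change 0.89, SE 0.19, FDR 0.0182), under the fold required for a call. The FDR was 0.0789 without control replicate 3, 0.0588 without trametinib replicate 1 and 0.0698 without trametinib replicate 2. With the combination it was 0.56 on the log2 scale (95% interval 0.14 to 0.98, FDR 0.0855).

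Notch1, the receptor through which DLL4 limits sprouting, lies on chromosome 2 from 26457903 to 26516663, minus strand (ENSMUSG00000026923). Control tumors had 99.2, 86.6 and 134 CPM, trametinib treated tumors 62.2, 44.8 and 65.7 CPM, cediranib treated tumors 91.7, 113 and 74.7 CPM, and combination treated tumors 84.0, 95 and 114 CPM. Only the trametinib treated tumors stood apart, below the 9 others. Their log2 fold change against control was -0.89 (SE 0.21, FDR 0.0281). The FDR rose to 0.113 without control replicate 3, 0.0634 without trametinib replicate 1 and 0.1 without trametinib replicate 2. In combination treated tumors Notch1 was close to control, with a log2 fold change of -0.13 (95% interval -0.58 to 0.33, FDR 0.744) that became 0.01 when library totals alone were used for scaling. Counts of the 2 noncoding genes antisense to Notch1 exons were at most 2 in any tumor.

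Scaled to the length given for each gene, the 4 receptors could be compared with one another. In control tumors Notch2 had 25.1 ± 4.28 CPM per kb (mean ± SD, n = 3), Notch1 7.49 ± 1.73, Notch4 4.30 ± 0.974 and Notch3 3.05 ± 0.552. Of the summed CPM per kb, Notch2 made up 62.6% ± 8.39 in control, 80.1% ± 5.58 in trametinib treated, 67.4% ± 4.07 in cediranib treated and 65.8% ± 10.3 in combination treated tumors. Notch4 made up 10.8% ± 2.87 in control and 9.82% ± 3.66 in cediranib treated tumors, but 2.01% ± 0.177 and 2.50% ± 0.486 in trametinib and combination treated tumors. The share of Notch3 was 7.64% ± 1.27, 10.4% ± 2.90, 6.49% ± 0.774 and 19.6% ± 10.5 in control, trametinib, cediranib and combination treated tumors. The order of these minor receptors therefore turned with trametinib: per kb, the ratio of Notch3 to Notch4 was 0.601 to 0.995 in control and 0.401 to 0.934 in cediranib treated tumors, and 3.82 to 6.49 in trametinib and 3.68 to 16.0 in combination treated tumors. These shares depend on the capture probes of each gene as well as on its transcripts.

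**Figure D2:**
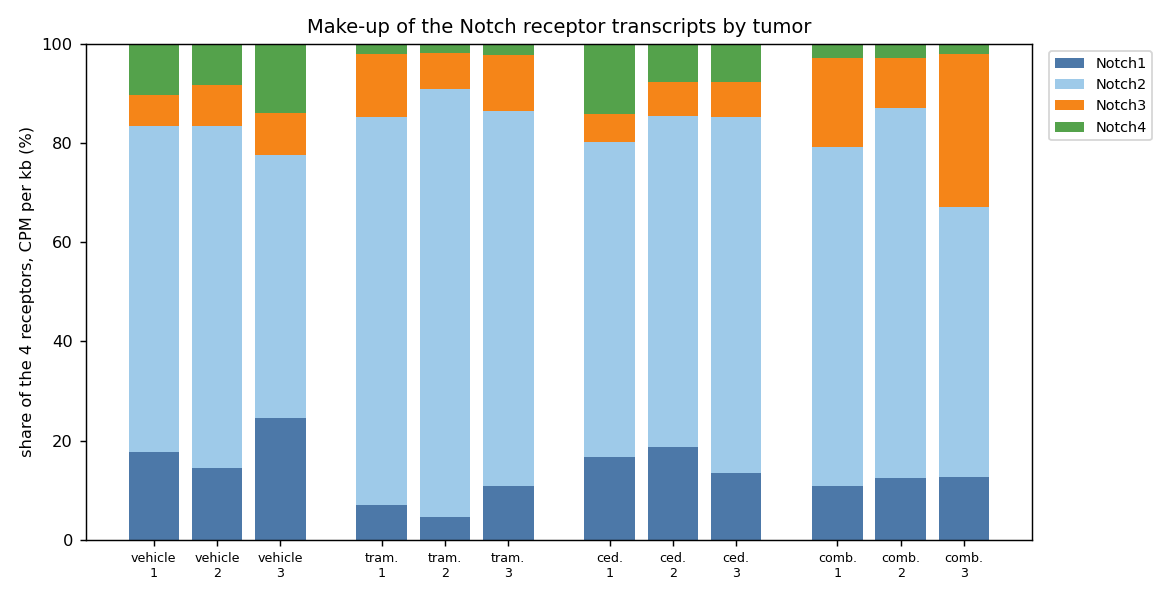
Share (%, y axis) of each Notch receptor in the summed CPM per kb of the 4 receptors, 1 bar per tumor, with tram., ced. and comb. for trametinib, cediranib and combination. Notch4 averaged 10.8% in control and 2.01% in trametinib treated tumors, and the widest Notch3 band is that of combination replicate 3.

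Of the ligands, Dll4 (ENSMUSG00000027314, chromosome 2, 119325784 to 119335962, plus strand) was the least abundant per kb and had the largest log2 fold changes of the 3 against control. The counts were 28, 46 and 155 in the control tumors, 13, 70 and 17 in the cediranib treated, 7, 11 and 9 in the trametinib treated, and 1, 2 and 0 with the combination. As normalized CPM these were 2.38, 4.66 and 15.7 in control, 1.30, 6.62 and 1.63 with cediranib, 0.635, 1.28 and 0.753 with trametinib, and 0.101, 0.182 and 0 with the combination. Control replicate 3 was the highest tumor, and the trametinib treated and combination treated tumors overlapped neither control nor each other. The log2 fold change of Dll4 against control was -3.09 with trametinib (SE 0.81, FDR 0.0423) and -6.15 with the combination (SE 1.07, FDR 0.00647). As pooled normalized counts, control exceeded combination 76.8-fold, with an exact counting interval of 25.9 to 375, and exceeded trametinib 8.49-fold, with an interval of 5.69 to 13.2. Only 3 counts were left in the combination treated tumors, and control replicate 3 held 155 of the 229 control counts. The intervals cover counting error and not the spread between tumors.

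The trametinib call of Dll4 was lost when any of several tumors was left out. The log2 fold change was -1.99 (FDR 0.189) without control replicate 3, -3.34 (FDR 0.0585) without control replicate 2, -2.90 (FDR 0.138) without trametinib replicate 1, -3.42 (FDR 0.0861) without trametinib replicate 2 and -3.00 (FDR 0.135) without trametinib replicate 3. The combination call remained under each of the 6 omissions, with log2 fold changes between -6.96 and -5.05. The noncoding gene Gm14207, antisense to a Dll4 exon, held 10 counts in control replicate 3 and at most 1 in any other tumor.

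Jag2 (ENSMUSG00000002799, chromosome 12, 112907819 to 112929776, minus strand), a Jagged ligand of endothelium and epithelia, had 63.4, 68.0 and 50.5 CPM in control and 78.8, 56.9 and 67.8 CPM in cediranib treated tumors. It had 19.1, 25 and 23.4 CPM in trametinib treated tumors and 50.5, 29.5 and 48.6 CPM in combination treated tumors. The trametinib treated tumors were the lowest 3 of the 12. Their log2 fold change of -1.43 (SE 0.21, FDR 0.00248) came within the FDR but short of the fold, and the FDR stayed between 0.00467 and 0.0142 when any 1 tumor was left out. Without control replicate 3 or trametinib replicate 2 the change was large enough for a call (-1.55 and -1.51). With the combination the log2 fold change was -0.50 (95% interval -0.96 to -0.05, FDR 0.146).

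Jag1 (ENSMUSG00000027276, chromosome 2, 137081456 to 137116644, minus strand), the Jagged ligand that endothelial cells present to mural cells, had in control 38.9, 37.6 and 63.5 CPM, against 21.5, 48.9 and 15 CPM in trametinib treated tumors. It had 33.4, 55.1 and 30.5 CPM in cediranib treated and 24.8, 22 and 60.0 CPM in combination treated tumors. One tumor of each group was well above its 2 companions, and all 4 groups overlapped. The log2 fold changes against control were -0.72 (FDR 0.428) with trametinib and -0.39 (FDR 0.633) with the combination. Per kb, control tumors had 8.71 ± 1.30 CPM of Jag2, 8.01 ± 2.51 of Jag1 and 1.96 ± 1.84 of Dll4 (mean ± SD, n = 3).

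Among the targets, Hes1 (ENSMUSG00000022528, chromosome 16, 30064384 to 30067796, plus strand), a repressor that many pathways besides Notch induce, was the most abundant per kb, at 10.6 ± 2.40 CPM per kb in control. It had 19.0, 18.4 and 27.2 CPM in the control tumors, 17.5, 13.5 and 7.62 CPM in trametinib treated, 14.2, 21.1 and 19.2 CPM in cediranib treated and 11.1, 11 and 18.5 CPM in combination treated tumors. Trametinib treated tumors lay below control, while the cediranib and combination groups overlapped it. The log2 fold changes were -0.74 (95% interval -1.42 to -0.07, FDR 0.196) with trametinib and -0.67 (95% interval -1.34 to 0.00, FDR 0.186) with the combination, neither past the threshold.

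Hey1 (ENSMUSG00000040289, chromosome 3, 8663359 to 8666984, minus strand), a repressor that acts in arterial endothelium, was counted 9, 25 and 17 times in control, 7, 12 and 5 times in cediranib treated, 0, 0 and 6 times in trametinib treated and 5, 1 and 1 times in combination treated tumors. Trametinib replicates 1 and 2 held no count, and all 6 tumors given trametinib lay below the control tumors in CPM. The log2 fold change was -3.10 (SE 0.96, FDR 0.0824) with trametinib and -2.83 (SE 0.94, FDR 0.0778) with the combination. These were not called, but DESeq2's Wald test called both, with FDRs of 0.0366 and 0.0471. Without the filter on low counts edgeR also called both, with FDRs of 0.00264 and 0.00559. That fit gave far lower FDRs for other members too, as for Notch3 in combination against control, at 4.54e-22 where the filtered fit gave 0.011. With the filter, the FDR for trametinib was 0.0873 to 0.219 in the 5 omissions of 1 tumor that kept trametinib replicate 3. That tumor held all 6 of the trametinib counts, so its omission leaves a group at 0 and was not read as a call.

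Hey2 (ENSMUSG00000019789, chromosome 10, 30832359 to 30842801, minus strand), the close relative of Hey1 that also acts in the artery and heart, was counted 5, 6 and 3 times in combination treated tumors and 0, 2 and 1 times in trametinib treated tumors. None of the 6 control and cediranib treated tumors held a count. The level in combination treated tumors was 0.443 ± 0.144 CPM (mean ± SD, n = 3), at least 4.64-fold higher than in control and at least 4.57-fold higher than in cediranib treated tumors, taking 3 counts over the group as the limit of a count of 0. Against trametinib it was 14 counts to 3, a ratio of 4.65 with an exact counting interval of 1.30 to 25.2. Hey2 was left out of the test by the filter on low counts. Without that filter it passed the threshold in combination treated tumors against control, but not against trametinib or cediranib. All 3 control tumors were at 0, so this was not read as a call.

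Compared to control, 2 of the 9 genes tested were called with trametinib, Notch4 and Dll4, both lower, against 2.4% of all genes tested. At the FDR alone there were 5 of 9, 4 lower and 1 higher, against 6.12%, and the groups did not overlap for 8 of 9, against 25.8%. The median log2 fold change of the 9 was -0.89, with a median of 0.01 over all genes tested. In combination treated tumors 3 of 9 were called, Notch4 and Dll4 lower and Notch3 higher, against 3.61% of all genes. The same 3 passed the FDR alone, against 9.98%, and 6 of 9 did not overlap control, against 31.3%, with a median log2 fold change of -0.50 over the 9 and 0.00 over all genes. With so few genes these shares describe the list and were not tested.

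**Figure D3:**
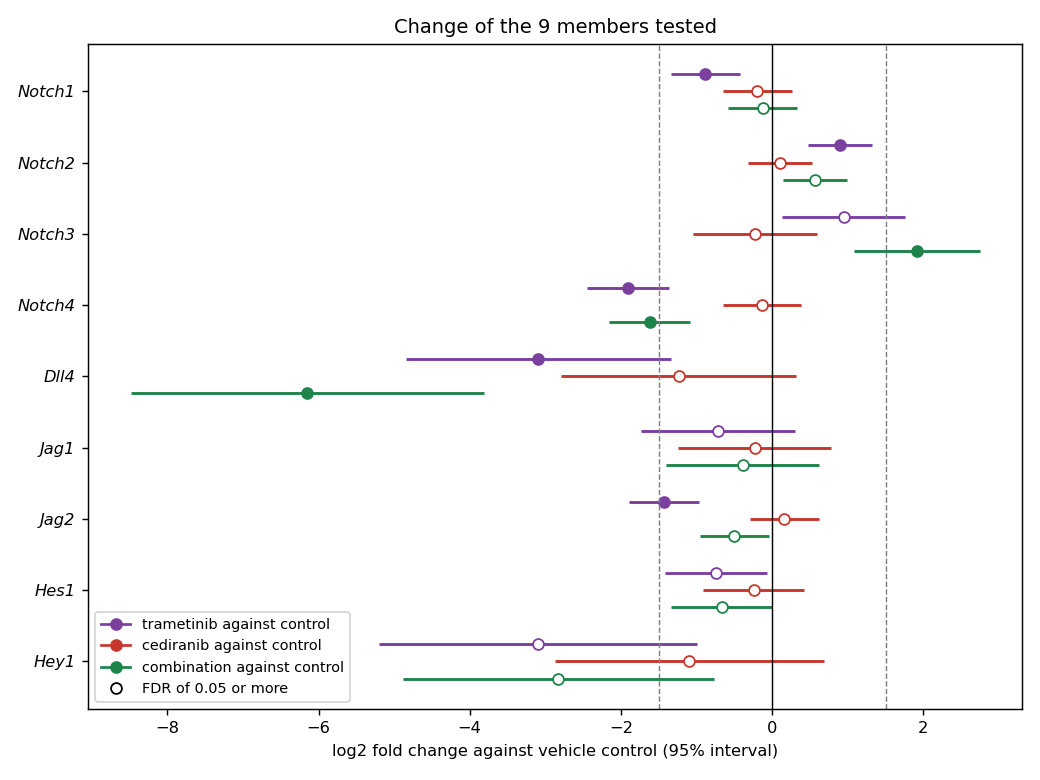
Log2 fold change against vehicle control (x axis) of the 9 genes tested, with 95% intervals as lines, for trametinib, cediranib and combination. Filled points passed an FDR of 0.05, dashed lines mark the fold of 1.5 on the log2 scale required for a call, and the cediranib intervals all span 0.

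Cediranib alone called 0 of the 9 members, as it called 0.0% of all genes tested, with the same 0.0% at the FDR alone (edgeR and DESeq2 both 0 of 9). An unadjusted p under 0.05 was reached by 0 of 9 members, against 557 of the 12897 genes tested. The groups overlapped for every member, against 7.76% of all genes that did not. The log2 fold changes ran from -1.24 for Dll4 to 0.16 for Jag2, each with an FDR of 0.999. The intervals were narrowest for Notch1 (-0.65 to 0.26), Notch2 (-0.32 to 0.53), Notch4 (-0.66 to 0.38) and Jag2 (-0.29 to 0.61). They were wider for Jag1 (-1.24 to 0.77), Notch3 (-1.05 to 0.59) and Hes1 (-0.91 to 0.42). For Dll4, the ligand under VEGF control, the interval of -2.79 to 0.32 covers both a large decrease and a small increase. Its cediranib replicate 2 had 6.62 CPM and the other two 1.30 and 1.63, below every control tumor.

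Whether the combination differed from each single agent was asked next. Against cediranib alone, 2 of 9 members were called (Notch3 higher, Dll4 lower) against 2.45% of all genes, 3 of 9 passed the FDR alone against 7.68%, and 5 of 9 did not overlap against 28.4%. Dll4 had a log2 fold change of -4.91 (SE 1.1, FDR 0.0212). Its FDR was 0.0655 without cediranib replicate 2 and 0.0701, 0.0572 and 0.0775 without combination replicates 1, 2 and 3. Notch4 passed the FDR alone at -1.48 (SE 0.25, FDR 0.0057) and reached the fold for a call without cediranib replicate 2 (-1.59), cediranib replicate 3 (-1.63) or combination replicate 1 (-1.52). Jag2 was at -0.66 (95% interval -1.12 to -0.21, FDR 0.0762).

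Against trametinib alone, 0 of 9 members were called by edgeR and 0 by DESeq2, against 0.675% of all genes, and 0 passed the FDR alone, against 0.969%. At an unadjusted p under 0.05 there were 4 of 9, against 2309 of the 12897 genes tested, and 3 of 9 did not overlap, against 24.2%. Notch1 and Jag2 were higher in each combination treated tumor than in every trametinib treated tumor, with log2 fold changes of 0.76 (95% interval 0.30 to 1.22, FDR 0.0923) and 0.93 (95% interval 0.47 to 1.39, FDR 0.062). Dll4 was lower in each, at -3.05 (95% interval -5.74 to -0.37, FDR 0.222), on 3 counts against 27. Notch4 differed by 0.29 (95% interval -0.25 to 0.84, FDR 0.576). The interaction, which asks whether cediranib acted differently when trametinib was present, gave 0 of 9 members by either tool and 0.0% of all genes, with 0.0% also at the FDR alone. The members with an unadjusted p under 0.05 were 3 of 9, against 909 of the 12897 genes tested: Notch1 at 0.96 (FDR 0.635), Notch3 at 1.20 (FDR 0.695) and Jag2 at 0.77 (FDR 0.682).

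Of 51 other genes listed for the pathway by role, 44 could be tested. The list includes 7 arterial and tip endothelial genes, which are not parts of the pathway itself. With trametinib, 3 of the 44 were called, all lower, against 2.4% of all genes tested, and the median log2 fold change of the 44 was -0.01. Mfng, a Fringe glycosyltransferase that tunes which ligands a receptor answers to, had 3.07, 5.57 and 5.96 CPM in control, against 0.635, 0.582 and 0.251 CPM in trametinib treated tumors (log2 fold change -3.30, FDR 0.00197). Nrarp, a Notch target that feeds back on the nuclear complex, had 8.52, 6.59 and 8.28 CPM in control, against 1.18, 0.931 and 1.84 CPM in trametinib treated tumors (-2.54, FDR 0.00371). Dll1, a second Delta-like ligand, had 10.9, 8.21 and 16.6 CPM in control, against 3.27, 4.19 and 3.18 CPM in trametinib treated tumors (-1.75, FDR 0.00916), a call lost without control replicate 3. None of these trametinib treated tumors overlapped control. A further 3 passed the FDR alone, which 6.12% of all genes passed, and are named after their values were seen: Rbpj, the DNA-binding partner of the cleaved receptor (-1.09, FDR 0.00212), Furin, which processes receptors on their way to the surface (-0.85, FDR 0.00698), and Unc5b, a tip cell guidance receptor (-1.24, FDR 0.0115).

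In combination treated tumors 2 of the 44 were called, both lower, with a median of 0.04 over the 44. That is 4.55%, close to the 3.61% of all genes tested. Mfng had 0.707, 0.999 and 0.742 CPM (log2 fold change -2.55 against control, FDR 0.00645). Heyl, a Hey family member of mural cells, was counted 5, 1 and 6 times, against 8, 60 and 53 in control (-3.36, FDR 0.0416), and was called without control replicate 1 but in none of the other 5 omissions. At the FDR alone there were 8, 7 lower and 1 higher, or 18.2% against 9.98% of all genes. Nrarp had 2.83, 1.82 and 4.27 CPM, again below control (-1.39, FDR 0.0395). Rbpj had 96.8, 87.2 and 106 CPM in combination treated tumors, 79.4, 64.5 and 70.2 CPM in trametinib treated tumors and 189, 129 and 135 CPM in control, so that both trametinib groups lay below it. Of 8 genes tested for receptor cleavage, including the gamma-secretase subunits Ncstn and Aph1a, Furin alone passed the FDR in either group, and the 3 corepressors gave 0.

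**Figure D4:**
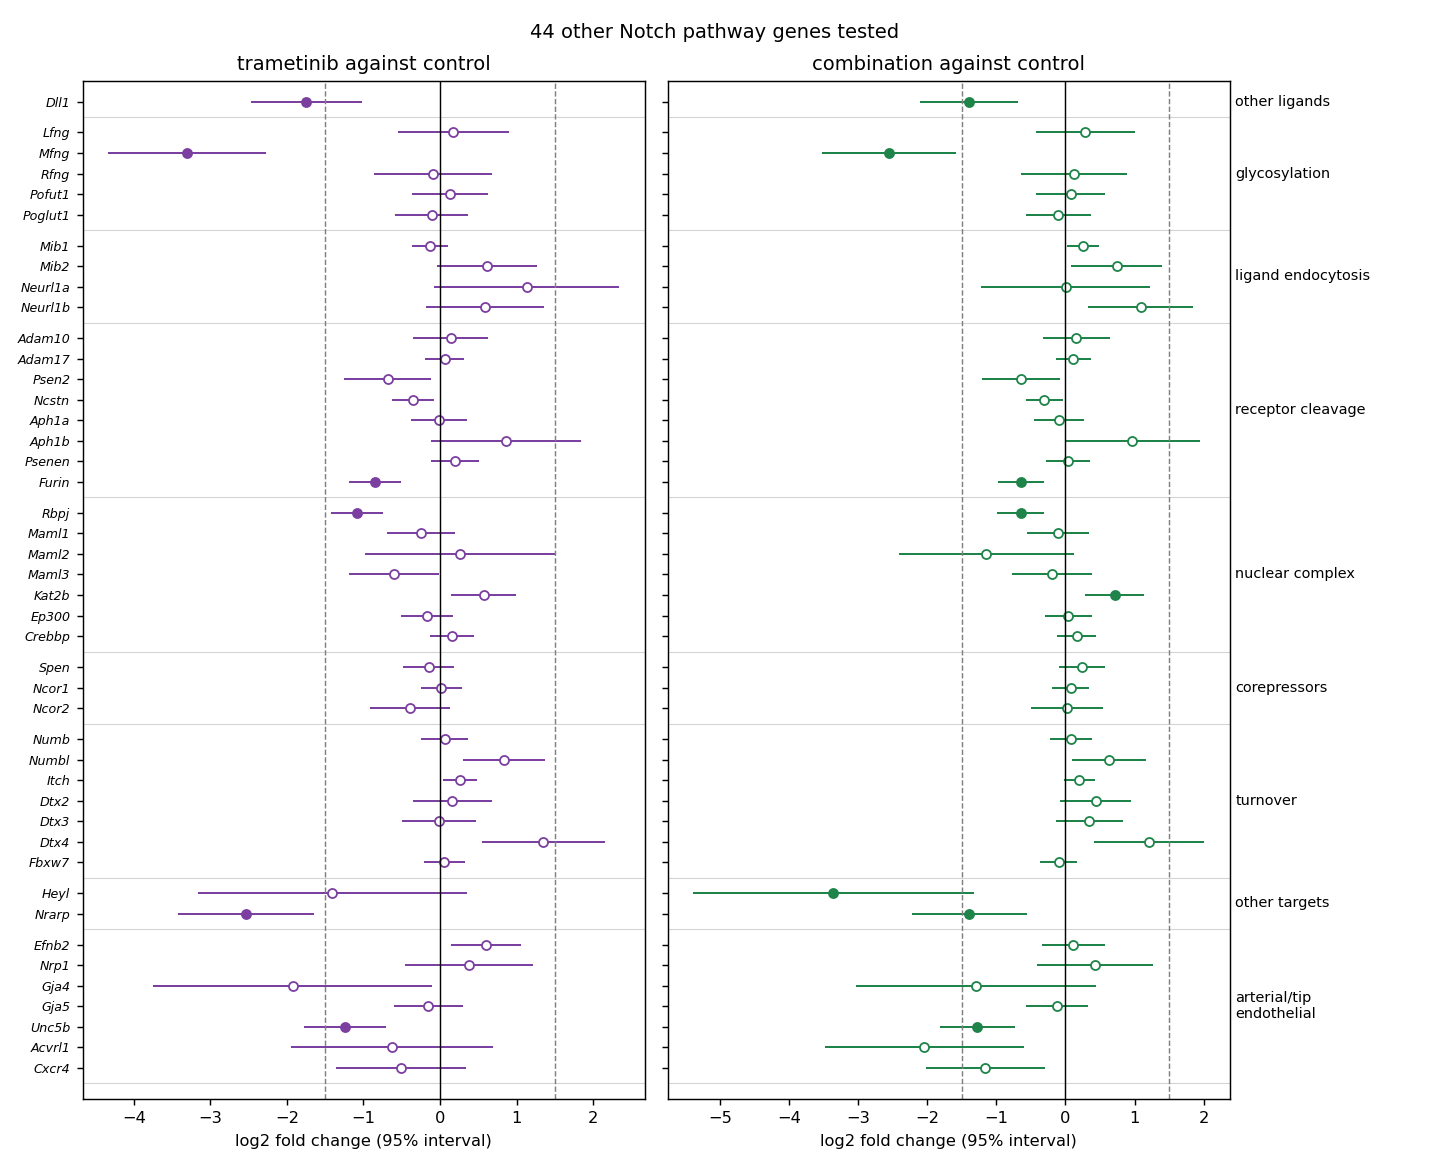
Log2 fold change against control (x axis) with 95% intervals of 44 other Notch pathway genes grouped by role, for trametinib (left) and combination (right). Filled points passed an FDR of 0.05, open points did not, dashed lines mark 1.5 on the log2 scale, and Mfng is filled and beyond the line on both sides.

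Against cediranib, 3 of the 44 were called in combination treated tumors, against 2.45% of all genes, and 7 passed the FDR alone, against 7.68%. Dtx4, a Deltex family ubiquitin ligase, had 8.48, 13.7 and 16.7 CPM with the combination and 1.90, 4.82 and 3.92 CPM with cediranib (log2 fold change 1.86, FDR 0.0137). Neurl1b, which promotes ligand endocytosis, had 12.1, 9.35 and 15.8 CPM against 4.80, 5.20 and 2.87 CPM (1.53, FDR 0.0254), and Mfng was lower (-1.70, FDR 0.0397). Leaving out 1 tumor at a time, Dtx4 was called in 6 of 6 omissions, Neurl1b in 2 and Mfng in 0. Cediranib against control, combination against trametinib and the interaction gave 0 of 44 each by edgeR.

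Markers of other cell types moved with several of these genes. The summed CPM of 12 endothelial markers was 253 to 507 in control, 159 to 392 in cediranib treated, 114 to 174 in trametinib treated and 81.1 to 143 in combination treated tumors, and of the 11 tested 5 were called lower with trametinib and 6 with the combination. Emcn was at 0 in every trametinib treated tumor, but it held only 6 counts over the 3 control tumors and did not pass the filter. SVR cells are endothelial themselves, so these markers do not separate tumor cells from host vessels. Per 100 CPM of endothelial markers, Notch4 was 8.55 to 12.8 in control, 5.89 to 6.78 in trametinib treated, 6.77 to 15.1 in cediranib treated and 6.90 to 14.6 in combination treated tumors. Trametinib treated tumors thus remained below control on this scale, whereas combination treated tumors overlapped it. Dll4 per 100 CPM of the same markers was 0.942 to 3.09 in control, 0.439 to 0.736 in trametinib treated and 0 to 0.224 in combination treated tumors, without overlap of either with control. Cediranib treated tumors ran from 0.36 to 1.69 and overlapped control, although their lowest value was under the trametinib range. Jag2 on the same scale was 13.2 to 20.6 in trametinib treated tumors, inside its control range of 9.97 to 25.1, and Notch1, at 25.8 to 57.8, overlapped its control range of 26.5 to 39.2. The part of the endothelial share in the results on Notch4, Dll4, Jag2 and Notch1 was not tested further.

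Of the markers of pericytes and smooth muscle, the cells known for NOTCH3, 0 were called higher in combination treated tumors. The summed CPM of 10 such markers was 98.0 to 495 in control, 150 to 1860 in trametinib treated, 79.1 to 249 in cediranib treated and 54.7 to 102 in combination treated tumors, where 5 of the 9 tested were called lower. Per 100 CPM of these markers Notch3 was 5.31 to 19.9 in control, 2.1 to 42.3 in trametinib treated, 9.17 to 28.3 in cediranib treated and 79.2 to 154 in combination treated tumors. The combination treated tumors stood above all the others on this scale, while trametinib treated tumors overlapped control. Acta2 and Des weigh heavily in these sums, at 949 and 858 CPM in trametinib replicate 2, where the sum was 1860. That tumor gave the value of 2.1, and it also had the most CPM of skeletal muscle markers. The scale was not recomputed without these 2 genes. Of 15 epidermal markers tested, 6 were called higher in combination treated tumors than in control. The sum over 18 genes was 332 to 506 CPM there, 49.4 to 94.6 in control and 43.8 to 66.1 in trametinib treated tumors, where 8 of the 18 were at 0 in all 3 tumors (Dsg1a, Dsg3, Dsc1, Dsc3, Pkp1, Perp, Ivl and Evpl). Dsg3 was at 0 in every control tumor as well. Of the 15 tested, Ppl alone was higher with trametinib, at 29.7 to 39.9 CPM against 3.84 to 17.7 CPM in control. Among cediranib treated tumors the epidermal sum was 80.6 in replicate 2 and between 255 and 277 in the others, and these had 17.5 and 22.4 CPM of Notch3, no more than the 22.8 CPM of replicate 2. Jag2 was 78.8 and 67.8 CPM in the cediranib treated tumors rich in epidermal markers and 56.9 CPM in replicate 2. With an epidermal score as a covariate, the mean log2 CPM of the 15 markers tested, the 3 calls of combination against control were lost. The log2 fold changes were then 2.28 for Notch3 (FDR 0.137), -1.81 for Notch4 (FDR 0.0659) and -3.48 for Dll4 (FDR 0.165). Combination treated tumors scored 3.19, 3.79 and 3.49, cediranib replicates 1 and 3 scored 3.21 and 3.12, and the other 7 tumors scored 1.64 or less, so that the score and the combination largely coincide. The part of epidermal and mural cells in the results on Notch3 and Jag2 was not tested further.

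Other marker lists also varied between the tumors in which Notch2 and Notch3 were higher and the rest. Of 7 fibroblast markers tested, all had a log2 fold change above 0 with trametinib, and Pdgfra alone passed the FDR (1.19, FDR 0.0212). Their mean log2 CPM was 6.89 to 6.97 in trametinib treated tumors, 4.07 to 6.65 in control and 5.06 to 6.03 in combination treated tumors, whereas the summed CPM of the list overlapped between trametinib and control (8090 to 36900 and 2030 to 21000). Of 8 macrophage markers 3 passed the FDR with the combination, all lower, and 1 of them was called. Their sum was 176 to 314 CPM there and 388 to 683 CPM in control. Skeletal muscle markers summed to 18400 CPM in control replicate 2 and 27000 CPM in trametinib replicate 2, the tumors with the most Notch2 in their groups, and to 8.79 to 2000 CPM in the other 10, and none of the 8 passed the FDR in any comparison. The part of these cells in the results on Notch2 and Notch3 was not tested.

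**Figure D5:**
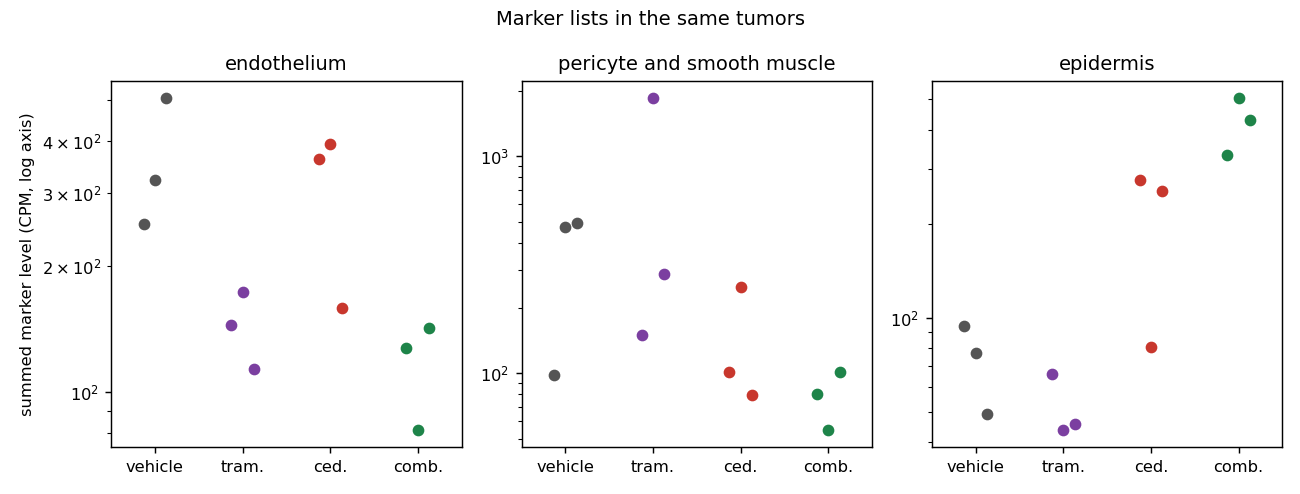
Summed normalized CPM (y axis, log scale, separate per panel) of the endothelial, pericyte and smooth muscle, and epidermal marker lists in each tumor, grouped as vehicle control, trametinib (tram.), cediranib (ced.) and combination (comb.). Endothelial sums were 253 to 507 in control and 81.1 to 143 in combination treated tumors, and epidermal sums 49.4 to 94.6 and 332 to 506.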

How the data were processed

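RNA of 12 SVR tumors, 3 per treatment, was captured with TruSeq RNA Exome probes and sequenced as paired 50-base reads in 1 pool on 1 lane. Per the labels and the methods of the study, the authors made FASTQ files with bcl2fastq 1.8.4, used STAR 2.7.1a for alignment to GRCm38 in 2 passes, and deposited raw read counts per gene from featureCounts 1.6.0, without normalization. The sources used here do not give the annotation release, the strand setting or how multimapping reads were treated. Samples were grouped by title and treatment, and 0 columns of the table were left unmapped.

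Counts were filtered (filterByExpr, minimum count 10, minimum total 15), scaled with TMM and tested by quasi-likelihood in edgeR 4.0.16 under R 4.3.3, all 12 libraries in 1 fit, with Benjamini-Hochberg adjustment (FDR) over 12897 genes. The biological coefficient of variation was 27.2%. A call required an FDR under 0.05 and a log2 fold change of 1.5 or more in either direction, which is the study's threshold. The scripts were tested on simulated data with known changes. Each library of 9478865 to 11666094 counts resolved 0.251 to 0.349 CPM as 3 counts. Levels per kb used the length column of the table, which equals the summed exon length in GENCODE M21 for 9 of the 10 members. Counting intervals are exact binomial intervals at 95%. Upstream sequences were from RefSeq, and overlaps with other genes from GENCODE M21.

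All 10 members are named, with the pathway genes called in a comparison. For each called member the 3 genes most like it over the tumors are also named, and marker genes are given as sums. From the pathway list, 1 gene is not reported here. The members and lists were chosen with earlier results of these data known. Alternatives were RLE scaling, library totals, no filter, DESeq2 1.42.0, the FDR alone, a replicate block, an epidermal score, fits of 2 groups and leaving out each tumor.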

Additional observations from a re-analysis of the deposited data

How the results depend on the processing

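Of 796 values of single members under the alternatives, 739 kept their direction and their side of the threshold, 16 lost the threshold, 16 gained it and 25 changed sign. None of the 25 belonged to the 7 calls reported, and except where a construction shows it the cause was not tested. The Notch4 call with trametinib remained in 14 of 14 alternatives (-2.04 to -1.72) and the Notch3 call against cediranib in 14 of 14 (1.54 to 2.51). Of the others, Dll4 kept its call in 8 of 14 with trametinib, 13 of 14 with the combination and 10 of 14 against cediranib, and against control in combination treated tumors Notch3 kept it in 12 of 14 and Notch4 in 11 of 14.

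Without the low-count filter, which keeps low genes and changes the spread estimated, 5 members passed the threshold with the combination against control (Dll4, Hey1, Hey2, Notch3 and Notch4) and 1 against trametinib (Dll4). Hey2 was at 0 counts in every control tumor and was not read as a call. The FDR alone gave 5 for trametinib against control, and a fit of these 2 groups only gave 1, Notch4. The epidermal score left 0 for combination against control. With that score the log2 fold change turned to 0.24 for Notch1 and 0.35 for Jag1 (combination against control), 0.12 for Jag1 (cediranib against control), 0.23 for Jag1 (combination against cediranib), 0.51 for Dll4 (combination against trametinib) and 0.63 for Dll4 (interaction). Scaling by library totals alone moved the median of all genes by 0.13 for combination against control and turned Notch1 there to 0.01, and Notch4 there, at -1.49, fell short of the fold.

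Leaving out 1 tumor at a time gave 1 to 2 members called with trametinib against control, 2 to 3 with the combination against control, 1 to 3 with the combination against cediranib and 0 elsewhere. Signs turned only in values that were not called. For cediranib against control the ranges were -0.36 to 0.00 for Notch1, -0.02 to 0.22 for Notch2, -0.45 to 0.05 for Notch4 and -0.55 to 0.05 for Jag1. For combination against trametinib they were -0.27 to 0.96 for Jag1, -0.22 to 0.36 for Hes1 and -0.89 to 4.29 for Hey1. For combination against cediranib they were -0.05 to 0.23 for Notch1 and -0.76 to 0.15 for Jag1. For Notch1 in combination against control the range was -0.26 to 0.07, and for Jag1 in the interaction -0.03 to 1.20.

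Tumors of the same replicate number did not deviate together (correlations of -0.219 to 0.356), so the numbers do not pair tumors. With a replicate block the same members were called in every comparison (2 for trametinib and 3 for combination against control, 2 for combination against cediranib, 0 elsewhere), and among the 44 other pathway genes combination against control went from 2 calls to 1, Mfng. Those other genes gave 6, 8 and 7 calls at the FDR alone in the 3 comparisons where the members had calls. With the epidermal score they gave 0 calls against control and 1 against cediranib for the combination. At this depth, genes at the level of Hey1 and Hey2 are resolved to a few counts.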

Other observations

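The genes whose profile over the 12 tumors was nearest to each called member, by root-mean-square difference of centred log2 CPM, are given as a description. They were picked for this likeness, the 12 tumors are the same for all of them, and nothing about shared function or control follows. Nearest to Notch4 were Adgrg1, an adhesion G protein-coupled receptor, at a difference of 0.215, Gm15609 at 0.257 and the amino acid transporter Slc38a1 at 0.258, where Notch4 itself had an SD of 0.87. Adgrg1 averaged 35.8 CPM in control, 10.6 in trametinib treated, 32.6 in cediranib treated and 10.9 in combination treated tumors. Nearest to Dll4 were Sox18, a transcription factor of endothelial cells, at 0.703, Rgs16, a regulator of G protein signaling, at 0.728 and the imprinted gene Mest at 0.757, beside an SD of 1.82 for Dll4. Sox18 averaged 10.1 CPM in control, 7.13 in cediranib treated, 2.38 in trametinib treated and 0.756 in combination treated tumors. Nearest to Notch3 were Plcb1, a phospholipase C, at 0.351, the ciliary gene Cc2d2a at 0.37 and Lamb2, a laminin chain of basement membranes, at 0.385, beside an SD of 0.891. Plcb1 averaged 11 CPM in control, 23.8 in trametinib treated, 12.5 in cediranib treated and 55.1 in combination treated tumors.

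Per 100 CPM of endothelial markers, Notch1 ran from 65.7 to 117 in combination treated tumors, 26.5 to 39.2 in control, 25.8 to 57.8 in trametinib treated and 25.4 to 47.0 in cediranib treated tumors. The combination treated tumors were the highest 3 of the 12. Jag2 ran from 34.1 to 39.5 in combination treated tumors, 9.97 to 25.1 in control, 13.2 to 20.6 in trametinib treated and 14.5 to 42.7 in cediranib treated tumors, and its highest value was that of a cediranib treated tumor.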
